A study of Saccharomyces cerevisiae with 5 samples.

Results

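The 10 genes followed here belong to the machinery that carries messenger RNA out of the nucleus of Saccharomyces cerevisiae, and their values on 5 arrays are described. They were chosen by gene symbol: YRA1 and its relative YRA2, MEX67 and MTR2 of the export receptor, the helicase gene SUB2, and the genes of the export-linked RNA-binding proteins NPL3, HRP1, NAB2, GBP2 and HRB1. All 10 were found, among 5583 genes on the arrays. Each array compared RNA recovered with zz-tagged Yra1 against RNA recovered with the zz tag alone, the control immunoprecipitate; zz is an IgG-binding tag derived from protein A. Per the labels, channel 2 held the zzYra1 immunoprecipitate on arrays 1, 2 and 5, while channel 1 held it on arrays 3 and 4. Arrays 4 and 5 carry 1 date in their titles, as slides 1 and 2, and have opposite orientations, while each other array has a date of its own; whether they are a dye swap of the same RNA is not stated. The labels give neither strain, allele nor growth condition, nor whether arrays came from separate cultures, and p-values therefore cover array-to-array spread alone, possibly technical. What was measured for these genes is therefore whether their own transcripts differed between the immunoprecipitates, not the proteins they encode.

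In yeast a messenger RNA is packaged with proteins while it is transcribed and processed. The helicase Sub2 loads the adaptor Yra1, and Yra1 recruits the Mex67-Mtr2 heterodimer, which moves the particle through the nuclear pore. Npl3, Hrp1, Nab2, Gbp2 and Hrb1 are RNA-binding proteins that shuttle between nucleus and cytoplasm and join the transcript at different steps. YRA1 is itself known as an intron-containing gene whose product limits its own expression.

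Channel ratios, deposited on a log10 scale, are given here as log2 ratios, with the median gene of each array at 0. The numerator of the ratios is not stated in the sources used, so a sign does not say which of them held more of an RNA. Arrays of the same orientation can be set beside each other directly. For all 5 arrays results are given in both possible readings: the channel reading, in which arrays 3 and 4 are turned, and the turned reading, in which the values are taken as they stand because they would have been turned before deposit.

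The first result is how often these transcripts gave any value. A value was present for 6 of the 10 genes on array 1, where 44.3% of all genes on the table had one, and for 7 of 10 on array 2, against 51.1%. On array 3 all 10 were measured, against 97.6%. On array 4 it was 4 of 10 against 23.9%, and on array 5 it was 1 of 10, GBP2, against 19.8%. YRA2, HRP1, GBP2 and NAB2, 4 of the 10, had values on at least 4 arrays, as did 13.1% of the 5539 genes on both tables. MTR2 had values on 3 arrays, MEX67, SUB2, NPL3 and HRB1 on 2, and YRA1 on 1. No member had values on all 5 arrays. When a value on every spot of the gene was required, array 2 had 4 of 10 members against 41.1% of all genes. Array 4 then had 2 of 10 against 16.4%. With 10 genes these shares are a description and were not tested, and the sources used do not state why values are missing.

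**Figure D1:**
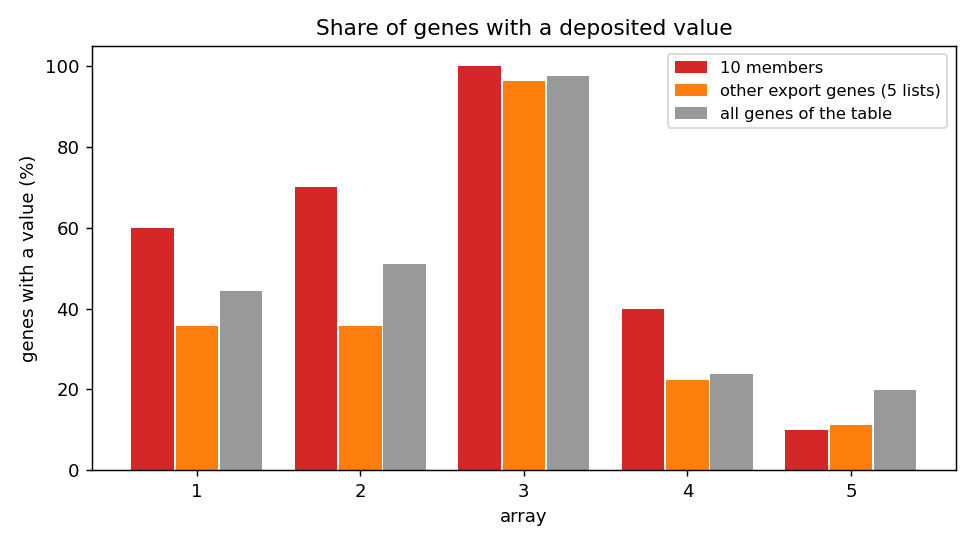
Share of genes with a deposited value (%, vertical axis) on arrays 1 to 5 (horizontal axis), for the 10 export adaptor and receptor genes, 29 other genes of mRNA export, counted where they are on the table, and all genes of the table. The 10 genes stand at 60%, 70%, 100%, 40% and 10%, above all genes on arrays 1 to 4 and below them on array 5. The 29 other export genes stand below all genes on each array.

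YRA1 (YDR381W), the gene of the tagged adaptor, was measured on array 3 only, at 0.63 log2 units from the median gene. Of the genes measured there, 76.2% lay lower. Its spot on arrays 1 and 2 and its 2 spots on arrays 4 and 5 held no value, so the transcript of the bait was neither tested nor seen a further time.

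YRA2 (YKL214C) encodes a second protein of the Yra1 family that also binds RNA and Mex67. Its values were -0.85 on array 1, 0.20 on array 2, -0.58 on array 3 and 3.42 on array 4. In log2 units the array 4 value lay furthest from the median gene, and 90.6% of the genes measured there lay lower. It was still below the 95th percentile of that widely spread array, 4.28. The spots around those of YRA2 there had a median of 0.95, and set against them the gene lay at 2.52. On array 1 the gene was among the lowest, with 7.59% of measured genes below it. The 2 arrays with zzYra1 in channel 1 thus gave opposite signs, and so did arrays 1 and 2.

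MEX67 (YPL169C) encodes the larger subunit of the export receptor. It lay at -1.07 on array 1, where 78 of 2476 measured genes were lower (3.15%), and at 0.16 on array 3. MTR2 (YKL186C), the small subunit that pairs with Mex67, lay at 0.48 on array 1, -1.38 on array 2 and -0.41 on array 3. On array 2 it was near the bottom of the array, with 75 of 2852 genes lower (2.63%). With spots averaged per gene, the subunits lay on opposite sides of the median gene on both arrays that measured them together, arrays 1 and 3. On each of these arrays, however, the 2 spots of MTR2 lay on different sides of the median gene. On both arrays 1 MTR2 spot was therefore on the same side as MEX67, and the opposition rests on the averaging.

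SUB2 (YDL084W), the gene of the helicase that works with Yra1, lay at 0.48 on array 2 and -0.63 on array 3. These arrays have opposite orientations, so the values have 1 sign in the channel reading and differ in the turned reading. The spots around it by spot number had medians of 0.96 on array 2 and 0.33 on array 3, both above the gene itself.

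NPL3 (YDR432W), of the SR-like protein that is recruited early in transcription, lay at 0.44 on array 1 and -1.02 on array 3. NAB2 (YGL122C), of the poly(A)-binding protein that limits tail length, lay at 0.41, -0.48, -0.91 and -0.63 on arrays 1 to 4. On arrays 3 and 4, which share an orientation, NAB2 was below the median gene both times, and 15.8% and 40.9% of genes were lower. Neither gene had a value on array 5.

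HRP1 (YOL123W) encodes a component of the 3' end cleavage factor that stays with the transcript to the cytoplasm. Its values were 0.27 on array 1, -0.53 on array 2, 0.70 on array 3 and 5.47 on array 4. On array 4 only 15 of 1326 measured genes lay higher. Arrays 3 and 4 gave the same sign, while arrays 1 and 2 did not. The value of array 4 came from 1 of the 2 spots of HRP1, and the other spot held no value. The spots around the measured one had a median of 1.58, from only 5 with a value. Set against them HRP1 lay at 3.94.

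GBP2 (YCL011C) and HRB1 (YNL004W) encode related SR-like proteins that join transcripts through the THO complex. GBP2 lay at 1.48 on array 2, 0.77 on array 3, -0.63 on array 4 and 0.26 on array 5. On array 2 it was among the higher genes, with 93.9% of measured genes below it. HRB1 lay at 0.29 on array 2 and at -1.61 on array 3, where 4.33% of genes were lower. On array 3 the relatives therefore lay on opposite sides of the median gene, as did YRA1 and YRA2. The spots around the GBP2 spot on array 4 had a median of 3.38, and set against them the gene lay at -3.96.

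**Figure D2:**
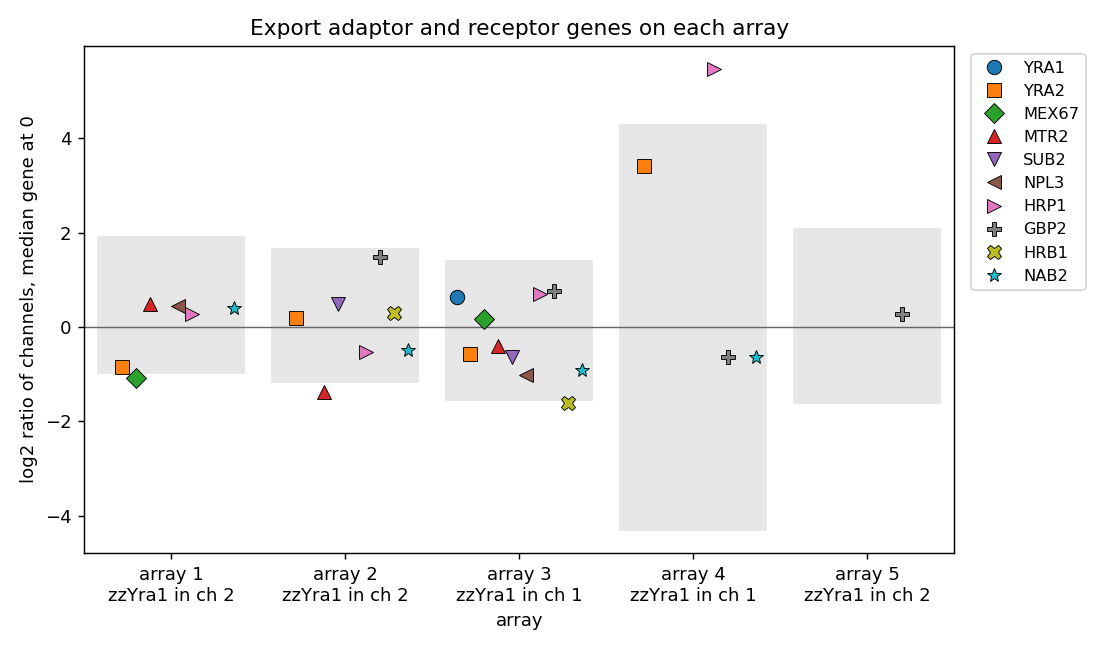
Log2 ratio of the channels (vertical axis, median gene of the array at 0) for each member on arrays 1 to 5 (horizontal axis, with the channel of the zzYra1 immunoprecipitate); grey boxes span the 5th to the 95th percentile of all measured genes. HRP1 on array 4 (5.47), MEX67 on array 1 (-1.07), MTR2 on array 2 (-1.38) and HRB1 on array 3 (-1.61) lie outside the box of their array.

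Distances from the median gene were read against those of all genes on the same array. More than 1 log2 unit (2-fold) from it lay 1 of 6 members on array 1 (MEX67), against 18.8% of all measured genes, and 2 of 7 on array 2 (MTR2 and GBP2), against 20.9%. On array 3 it was 2 of 10 (NPL3 and HRB1) against 25.8%, on array 4 it was 2 of 4 (YRA2 and HRP1) against 67.8%, and on array 5 it was 0 of 1 against 36.2%. The members' medians were 0.34, 0.20, -0.49, 1.39 and 0.26 on arrays 1 to 5, where the median of all genes is 0 by the centring. On array 4 that median rests on 4 genes, on an array whose genes had a standard deviation of 2.51 against 0.91 to 1.14 on the others.

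Signs were compared between arrays of the same orientation. On arrays 1 and 2 YRA2, MTR2, HRP1 and NAB2 had values on both, and the signs were opposite for 4 of 4. Among all 1301 genes measured on both, 50.5% had opposite signs. On arrays 3 and 4 the signs were opposite for 2 of 4 members (YRA2 and GBP2), against 50.6% of 1300 genes. GBP2, the only member on arrays 2 and 5, was positive on both, while 52.8% of 644 genes had opposite signs there. Over all genes, the correlations between arrays of the same orientation lay between -0.082 and -0.018. Between arrays of opposite orientation they lay between -0.042 and 0.047, also near 0.

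The 4 members with values on at least 4 arrays could be fitted in limma with no array left out and the orientation as a term. Each fit used 4 values, as YRA2, HRP1 and NAB2 had none on array 5 and GBP2 none on array 1. None passed in either reading, and neither did any other of the 725 genes fitted (0%). At an unadjusted limma p under 0.05 there were 19 genes in the channel reading (2.62%) and 25 in the turned reading (3.45%), with no member among them.

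HRP1 lay furthest from 0 of the 4 members in both readings with the arrays at their own spread. In the channel reading its coefficient was -1.61 ± 0.77 (log2, SE), with a 95% interval of -3.37 to 0.16 and a limma adjusted p of 0.905. In the turned reading it was 1.48 ± 0.77, with an interval of -0.29 to 3.24 and an adjusted p of 0.903. Of the 725 genes, 1.66% were as far from 0 in the first and 2.90% in the second. With all 5 arrays at equal spread HRP1 lay at -0.74 and 0.60, and 13.2% and 20.6% of genes were as far from 0. GBP2 then lay further from 0 than HRP1 in the turned reading, at 0.61.

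YRA2 had a coefficient of -0.87 ± 0.71 in the channel reading (interval -2.49 to 0.74, limma adjusted p = 0.905) and 0.55 ± 0.71 in the turned reading (interval -1.07 to 2.16, adjusted p = 0.922). GBP2 was at 0.40 ± 0.55 and 0.47 ± 0.55, with limma adjusted p-values of 0.905 and 0.906. NAB2 was at 0.36 ± 0.51 and -0.40 ± 0.51, with adjusted p-values of 0.905 and 0.913. The intervals of GBP2 reached from -0.85 to 1.65 and from -0.78 to 1.72, and those of NAB2 from -0.80 to 1.53 and from -1.57 to 0.77. When arrays were left out in turn, GBP2 ranged from 0.05 (without array 4) to 0.75 (without array 3) in the channel reading and from 0.12 (without array 3) to 0.82 (without array 4) in the turned reading. Without array 2 it was at 0.10 and 0.17. NAB2 ranged from 0.14 (without array 1) to 0.59 (without array 2) in the channel reading and from -0.63 (without array 1) to -0.18 (without array 2) in the turned reading. Differences of more than 2-fold were within the intervals of each of the 4 genes.

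Arrays 3 and 4 alone, which run the same way in either reading, measured the same 4 members. HRP1 had a mean of 3.08 ± 1.36 there, with a limma adjusted p of 0.958. Its unadjusted limma p was 0.0234, and 65 of the 1300 genes fitted (5%) had one under 0.05. The SE of 1.36 was the same for each of the 4 members, as an error shared between genes. These p-values therefore do not measure the spread of HRP1 itself, whose values there were 0.70 and 5.47. YRA2 lay at 1.42 ± 1.36, GBP2 at 0.07 ± 1.36 and NAB2 at -0.77 ± 1.36, each with a limma adjusted p of 0.969 or more. No gene passed. Arrays 1, 2 and 5 alone had no member with values on all 3; of the 281 genes fitted there none passed (0%), and 6 had an unadjusted limma p under 0.05 (2.14%).

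The coefficients of HRP1 and YRA2 with no array left out rested on array 4. Without it HRP1 was at -0.42 ± 0.56 in the channel reading and 0.28 ± 0.56 in the turned reading. YRA2 then changed sign, to 0.12 ± 0.56 and -0.45 ± 0.56. Without array 3, on the other hand, HRP1 passed in both readings, at -2.80 ± 0.67 (limma adjusted p = 0.0014) and 2.67 ± 0.67 (adjusted p = 0.00218). YRA2 passed in the channel reading, at -1.87 ± 0.67 (adjusted p = 0.0479), and not in the turned reading, at 1.54 ± 0.67 (adjusted p = 0.106). In that fit 11.3% of 602 genes passed in the channel reading and 13.3% in the turned reading. No other array then shares the orientation of array 4, which leaves its wide spread out of the error. When the 4 arrays were also given equal spread, chosen after seeing the data, no gene passed (0 of 602 or 0% in each reading by limma, with 9 and 12 at an unadjusted p under 0.05), and HRP1 lay at -1.06 and 0.92.

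**Figure D3:**
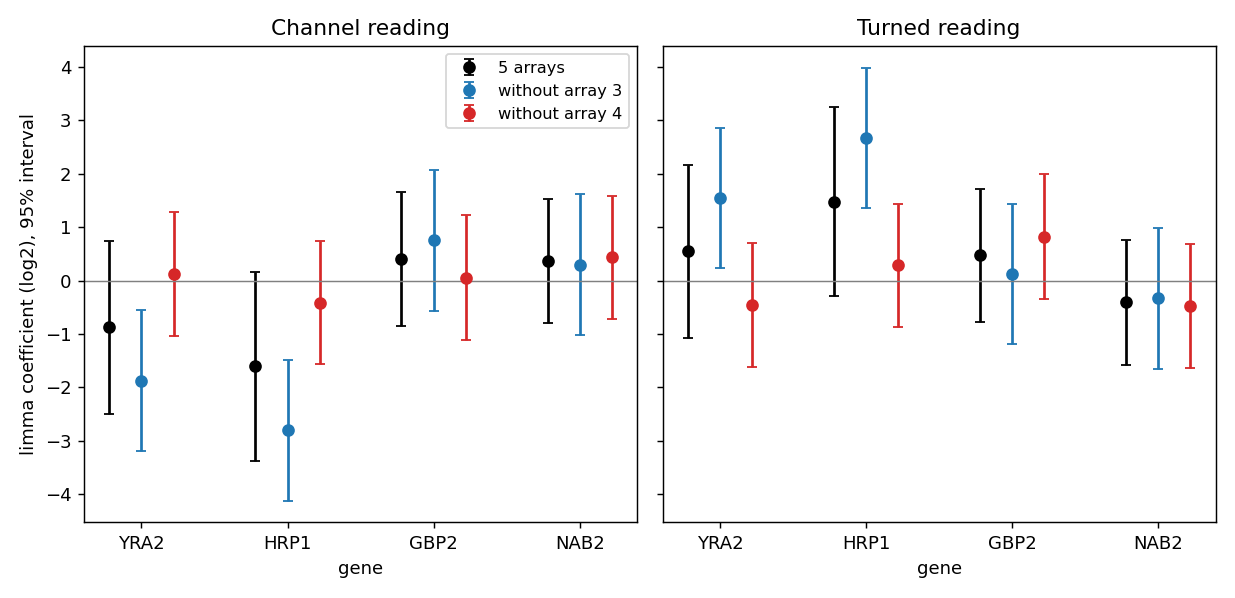
Limma coefficients (log2, vertical axis) with 95% intervals for YRA2, HRP1, GBP2 and NAB2 (horizontal axis) in the channel reading (left) and the turned reading (right), over 5 arrays (black), without array 3 (blue) and without array 4 (red). HRP1 stands at -1.61, -2.80 and -0.42 in the left panel, in that order, and the GBP2 and NAB2 intervals include 0 throughout. Each gene has values on 4 of the 5 arrays.

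The deposited decimals were searched for ratios of whole numbers, in a check added after seeing the data. Values have up to 9 decimals, and many of them equal a ratio of whole numbers within that rounding. On array 4 many denominators could be placed on a coarse grid of 25, 75, 125 and so on in steps of 50, searched up to 1975. What this grid stands for is not stated in the sources used. For 1323 of 2535 values (52.2%) a denominator from this grid gave a whole numerator, against 6.4%, 0.939%, 1.09% and 1.43% on arrays 1, 2, 3 and 5. The bottom of the grid, 25, was the smallest that served for 494 values (19.5%), whose median ratio was 2.67 log2 units above the median gene. Of the 302 values more than 3 log2 units above the median gene, 224 (74.2%) had that denominator.

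HRP1 on array 4 was 3180 over 25, the bottom of the grid. The YRA2 spots were 732 over 25 and 5616 over 175, and lay at 3.35 and 3.48 log2 units. Their ratios differed by 0.13. GBP2 was 510 over 275. Neither NAB2 spot had a ratio on the grid. An odd multiple of each pair gives the same ratio, so these are the smallest numbers that fit the grid. One step of the grid, from 25 to 75, changes a ratio by 1.58 log2 units. The part of this grid in the HRP1 and YRA2 values was not tested.

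**Figure D4:**
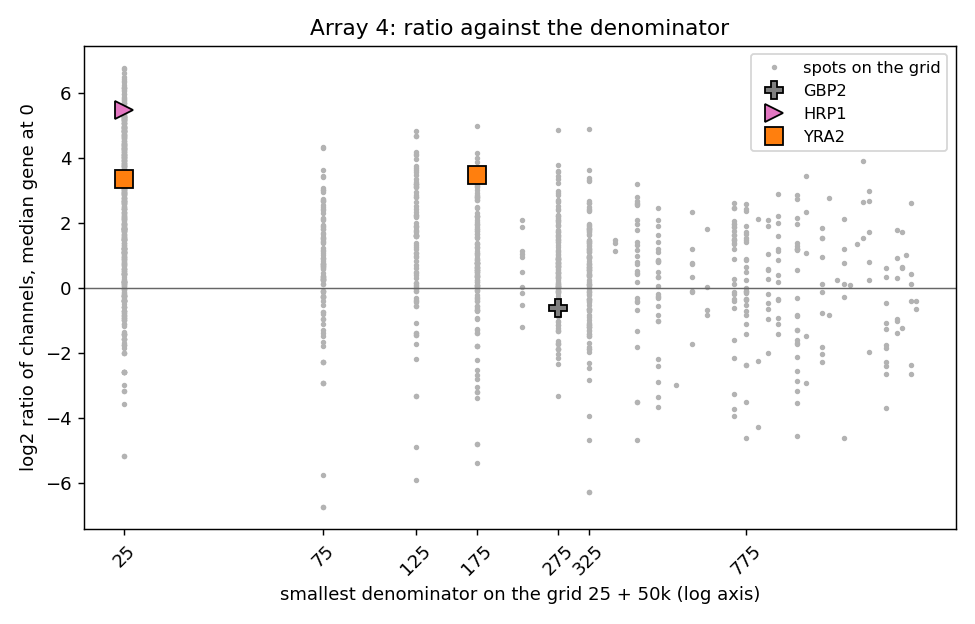
Log2 ratio on array 4 (vertical axis, median gene at 0) against the smallest denominator on the grid 25, 75, 125 and so on that gives a whole numerator (horizontal axis, log scale); grey points are all spots with such a denominator, and symbols mark member spots. HRP1 (5.47) and 1 YRA2 spot (3.35) stand in the column at 25, the other YRA2 spot (3.48) at 175 and GBP2 (-0.63) at 275.

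Repeat spots of a gene on the same array show how far a member's value can move without any change of sample. MTR2 on array 1 lay at -0.37 and 1.34 on its 2 spots, a difference of 1.71, where the median over 228 genes with 2 measured spots was 0.86. NAB2 on array 3 lay at -0.04 and -1.77, a difference of 1.72 against a median of 1.03 over 1022 genes. The other differences were 0.94 for NAB2 on array 1, 0.87 for YRA2 and 1.19 for MTR2 on array 3, and 0.90 for NAB2 on array 4, where the median of 914 genes was 0.45. The spots of YRA2 on array 4 differed by 0.13, and 19.0% of genes there had a smaller difference. MTR2 on arrays 1 and 3 and NAB2 on array 1 had 1 spot on each side of the median gene. On array 2 MTR2, YRA2 and NAB2 had a value on only 1 of their 2 spots.

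Other genes of the pathway were counted in the same way. Of 29 genes in 5 lists, 28 were on the table of arrays 1 to 3 and 27 on that of arrays 4 and 5. They were measured in 10, 10, 27, 6 and 3 cases on arrays 1 to 5, which is 35.7%, 35.7%, 96.4%, 22.2% and 11.1%. The shares of all genes were higher on each array, at 44.3%, 51.1%, 97.6%, 23.9% and 19.8%. On array 2, 9 of 10 lay above the median gene, with a median of 0.70, and on array 4, 5 of 6 lay below it, with a median of -1.25. On arrays 1, 3 and 5 the medians were 0.17, -0.03 and 0.06. The median of all genes is 0 by the centring, and these counts were not tested. Of the 29, 2 had values on 4 arrays and could be fitted with no array left out, and 0 passed in either reading. MFT1, of the THO complex, lay at 0.14 ± 0.58 in the channel reading and 0.01 ± 0.58 in the turned reading. GLC7, of the phosphatase that acts on Npl3, lay at -0.08 ± 0.59 and 0.44 ± 0.59. Their limma adjusted p-values lay between 0.925 and 0.995. On arrays 3 and 4 alone the smallest p of its list was that of CBC2, of the cap-binding complex, at 2.42 ± 1.36 (limma adjusted p = 0.958, from 0.75 on array 3 and 4.09 on array 4), of KAP104, the importer of Nab2 and Hrp1, at -1.56 ± 1.36 (adjusted p = 0.969), of THO2 at -1.43 ± 1.36 (adjusted p = 0.969), of CDC31 of TREX-2 at -0.21 ± 1.36, and of GLE2 at the pore at -0.29 ± 1.36 (both adjusted p = 0.996). CBC2, THO2, CDC31 and GLE2 were each the only gene of their list fitted there, so having its smallest p was fixed in advance. The list of KAP104 also had GLC7. The SE of 1.36 is again the error shared between genes on these arrays. The array 4 value of CBC2 came from a spot of 1224 over 25, the bottom of the grid as for HRP1.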

How the data were processed

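The authors deposited log10 ratios of the 2 channels per spot, as 1 table of 3 arrays and 1 of 2; the unit was settled from the deposited values, while scanner, dyes, background correction and numerator are not stated in the sources used. Spots were named through the platform annotation, updated by gene identifier to the R64 gene table (5578 of 5583 and 5534 of 5539 identifiers matched). Repeated rows were averaged and 1 row without a spot number was left out. Values were multiplied by 3.32 to log2, averaged per gene and centred on the median gene. No intensities were used, so spots were not filtered or weighted by signal. The small number of arrays limits the precision. Genes with values on at least 4 arrays were fitted in limma 3.58.1 (R 4.3.3), two-sided, with Benjamini-Hochberg adjustment over all genes and a threshold of 0.05; the code was tested on simulated data. Single orientations needed values on every array of theirs. Surrounding spots are the 10 on each side by spot number, with at least 5 measured. Whole-number ratios were matched at a relative tolerance of 1.2e-09. Alternatives were other centring, equal spread, surrounding spots, fewer spots, other filters, arrays 4 and 5 as 1 replicate (their titles share a date), 1 table alone and arrays left out. The named genes are the 10 members, and of each pathway list those that passed or had the smallest p; no member had 5 values, so none was matched to genes of like pattern. The members and lists were chosen with earlier results of these data known. No genome build is named, so coordinates are left out.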

Additional observations from a re-analysis of the deposited data

Results flagged for a closer look

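A gap between the most extreme array and its nearest neighbour was measured in 11 sets over 4 or 5 arrays, and 2 passed the limit. About 1 in 20 would by chance, or 0.55, if the sets were independent and the arrays of a set equally spread. Neither holds, because the same 4 genes enter in both readings and array 4 had a wider spread. HRP1 on array 4 lay at -5.47 in the channel reading, against -0.70 to 0.27 on arrays 1 to 3. The gap was 0.831 of the whole range, just past the limit of 0.829. With the values as they stand the gap was 0.795 and did not pass. The standard deviation over genes was 2.51 on array 4, against 0.91 to 1.14 on the others, with a gap of 0.853 of the range and a limit of 0.71.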

How the results depend on the processing

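Among refits of the 4 tested members under other settings, 113 results kept the sign and the side of the threshold, 9 changed sign and 3 passed (HRP1 in both readings and YRA2 in the channel reading, all without array 3). These are not counts of separate checks, because some settings left a gene's values as they were. YRA2, HRP1 and NAB2 had no value on array 5, so leaving it out returned the same coefficients. For them the table of 3 arrays alone also repeated the coefficients of the fit without array 4. YRA2 changed sign on the table of 3 arrays alone (0.12 in the channel reading, -0.45 in the turned reading) and, in the turned reading, with arrays at equal spread (-0.044). NAB2 changed sign in the turned reading with the highest-numbered spot left out (0.056) or without centring (0.41), and on arrays 3 and 4 without centring (0.072). GBP2 on arrays 3 and 4 lay at -1.57 against surrounding spots. Set against them HRP1 lay at -1.06 in the channel reading, 1.30 in the turned reading and 2.36 on arrays 3 and 4. For YRA2 these were -0.56, 0.42 and 0.98. At equal spread HRP1 moved to -0.74 and 0.60. Counting arrays 4 and 5 as 1 replicate gave 0 genes passed in each reading, with 18 at an unadjusted limma p under 0.05. The cause was not tested. With arrays left out in turn, YRA2 ranged from -1.87 to 0.12 in the channel reading and from -0.45 to 1.54 in the turned reading, and the counts of genes passed from 0 to 68 and from 0 to 80. Over all genes 1 passed in the channel reading on the table of 3 arrays, and 1 on arrays 3 and 4 at equal spread. Neither was a member. The median of the members on array 4 was 2.52 against surrounding spots, from 3 genes. A value on every spot was present for 5, 4, 10, 2 and 0 of the 10 members on arrays 1 to 5. The shares of all genes were 34.4%, 41.1%, 96.2%, 16.4% and 13.2%. No paired analysis was possible because there is 1 group of arrays.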
